A study of Mus musculus with 10 samples.

Results

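The contractile apparatus of smooth muscle, represented by 10 genes, was followed through RNA sequencing of mouse fibroblasts and of the cell lines reprogrammed from them. The genes were *Acta2*, *Actg2*, *Tagln*, *Cnn1*, *Myh11*, *Myl9*, *Tpm1*, *Tpm2*, *Des* and *Lmod1*. They were chosen by name and are 10 of the 18901 genes in the table. All 10 passed the filter on low values, as did 17075 genes in all. The study asked whether recombinant Netrin-1, a secreted ligand, harms the quality of iPS cells derived in its presence. It compared Oct4-GFP mouse embryonic fibroblasts (MEF, which carry a fluorescent reporter at the *Oct4* locus), a pre-iPS line that stopped part of the way to pluripotency, a 'control' iPS line and the 'Netrin-1-derived' iPS clones 1 and 2. All cells came from a cross of MF1 and 129 mice. MEF grew in DMEM with 10% fetal calf serum and the iPS cells in KSR medium with LIF. The study's methods give KSR medium with LIF, with or without added inhibitors (2i), for pre-iPS and iPS cells. Medium and cell type therefore cannot be told apart in comparisons with MEF. The reprogrammed lines had received Oct4, Sox2, Klf4 and c-Myc on retroviruses, which the pre-iPS cells had not silenced. Each line gave 2 libraries. Those of MEF were taken at passages 2 and 4, and those of the 4 reprogrammed lines at passages 5 and 25. Each iPS line was 1 clone, so its libraries were repeated samples of that clone, and p-values measure the spread between such samples. The study's methods name gelatin or irradiated MEF as the support for pre-iPS and iPS cells and do not say which was used for these libraries, so RNA from feeder cells could be present.

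In smooth muscle, actin filaments built from the *Acta2* and *Actg2* products slide along myosin filaments whose heavy chain is encoded by *Myh11*. Phosphorylation of the regulatory light chain, the product of *Myl9*, switches the motor on, and tropomyosins and calponin lie along the thin filament. Most of these genes are driven by serum response factor, which binds CArG boxes, together with the coactivators myocardin and MRTF. Cultured fibroblasts turn on some of these genes, *Acta2* among them, when they become myofibroblasts, and fibroblasts in serum are known for *Acta2* stress fibres.

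The values are pseudo-counts, which are reads per gene after edgeR had scaled the libraries to each other, and they are not scaled to gene length. Their totals were not equal, at 56073322 and 55886953 in MEF and 39745507 to 41892877 in the other 8 libraries. Differences from MEF and percentages of the MEF level rest on this scaling. The libraries held 38110410 to 52946856 reads on genes. The 14 fibroblast markers examined were all higher in MEF than in the iPS lines, and the 8 pluripotent cell markers were all lower. Over all genes, 21.6% were higher and 26.6% lower in that comparison, at the threshold given below. In bulk RNA, fewer cells expressing a gene and less RNA of it per cell cannot be told apart.

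The promoters of *Acta2* and *Myl9* are shown because they hold the CArG motifs found among the members. RefSeq promoter windows, from 250 bases before to 50 bases after the start, were available for 7 of the 10 members on GRCm38.p6. *Actg2*, *Tagln* and *Myh11* had no entry. Capitals mark a CArG box, a CArG-like decamer with 1 G or C among the 6 inner positions, or an MCAT motif (CATTCCT on either strand). None of the marked motifs overlapped.
*Acta2* promoter, chr19:34255324-34255623, minus strand: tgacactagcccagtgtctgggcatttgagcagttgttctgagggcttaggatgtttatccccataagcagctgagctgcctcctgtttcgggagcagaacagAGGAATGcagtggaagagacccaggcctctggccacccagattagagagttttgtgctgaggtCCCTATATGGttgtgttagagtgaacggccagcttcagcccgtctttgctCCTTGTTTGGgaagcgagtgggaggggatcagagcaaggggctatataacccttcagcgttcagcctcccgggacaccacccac
*Myl9* promoter, chr2:156775214-156775513, plus strand: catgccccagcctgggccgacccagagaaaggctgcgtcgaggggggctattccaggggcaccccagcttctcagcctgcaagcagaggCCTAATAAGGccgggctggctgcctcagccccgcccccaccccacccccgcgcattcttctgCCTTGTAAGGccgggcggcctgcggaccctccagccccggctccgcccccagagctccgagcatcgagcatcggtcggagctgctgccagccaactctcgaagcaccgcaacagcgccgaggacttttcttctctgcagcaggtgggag
In *Acta2* the CArG-like decamers began 84 and 34 bases before the start and the MCAT motif 147 bases before it. In *Myl9* the CArG box began 161 bases before the start and a CArG-like decamer 99 bases before it. The *Tpm1* window held an MCAT motif 57 bases before the start, and the windows of *Tpm2*, *Des*, *Cnn1* and *Lmod1* held none of the 3 motifs. A CArG box was present in 1.64% of 32544 distinct promoter windows, a CArG-like decamer in 8.46% and an MCAT motif in 5.38%. These are matches of letters and not measured binding sites.

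Actin genes are close relatives, so 50-base reads could in principle be assigned to the wrong copy. The coding sequences of *Acta2* and *Actg2* were 84.3% identical over the 1098 bases compared, and the longest identical run was 29 bases. No window of 50 bases was shared between *Actg2* and any other gene in GENCODE M21. The matching stretches near the start of the coding sequence are shown with differing bases in capitals, 15 in each, from coding base 34 of *Acta2* and coding base 31 of *Actg2*.
*Acta2* coding bases 34 to 123: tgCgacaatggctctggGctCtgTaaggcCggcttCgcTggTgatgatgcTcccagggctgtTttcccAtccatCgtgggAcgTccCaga
*Actg2* coding bases 31 to 120: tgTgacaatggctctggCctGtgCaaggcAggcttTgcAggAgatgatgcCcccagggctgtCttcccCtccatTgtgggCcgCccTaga
Shared windows made up 0.326% of the *Acta2* transcripts, 0.34% of *Myh11* (with *Myh9* in the main), 4.61% of *Des* (with the antisense gene *Gm15179*, which overlaps its end) and 58.3% of *Tagln*. The *Tagln* windows were shared with the antisense gene *Gm48529*, which lies within it, and with the end of its neighbour *Pcsk7*. The library kit does not mark strand, so reads of *Tagln* and *Des* there cannot be told from reads of these antisense partners. The other members shared none.

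Fibroblasts expressed all 10 members, and the order of their levels per kilobase of exon was led by the thin filament. Exon length was that of all annotated exons of a gene merged, which for *Tpm1* was 6485 bases. Before this scaling *Tpm1* had more pseudo-counts than *Tagln* in MEF (means of 91908 and 71247). *Acta2* (smooth muscle alpha-actin, chr19:34241090-34255590 on GRCm38) had 64123 pseudo-counts per kilobase as the mean of the 2 MEF libraries. *Tagln* (transgelin, an actin-bundling protein, chr9:45929619-45936058) had 35839 per kilobase. *Myl9* (chr2:156775420-156781658) and *Tpm1* (alpha-tropomyosin, chr9:67022590-67049406) followed at 14573 and 14172 per kilobase and were not separated beyond the spread of their libraries. *Tpm2* (beta-tropomyosin, chr4:43514711-43523765) had 6595 per kilobase and *Actg2* (gamma enteric actin, chr6:83512905-83536265) had 3873. The lowest were *Cnn1* (calponin 1, chr9:22099216-22109630) at 1553, *Lmod1* (leiomodin 1, an actin filament nucleator, chr1:135324807-135368065) at 808, *Des* (desmin, the muscle intermediate filament, chr1:75360329-75368579) at 422 and *Myh11* (chr16:14194535-14291372) at 244 per kilobase. The 10 genes together took 0.64% and 0.635% of the reads of the MEF libraries. In the pre-iPS and iPS libraries they took 0.0206 to 0.0709%.

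**Figure D1:**
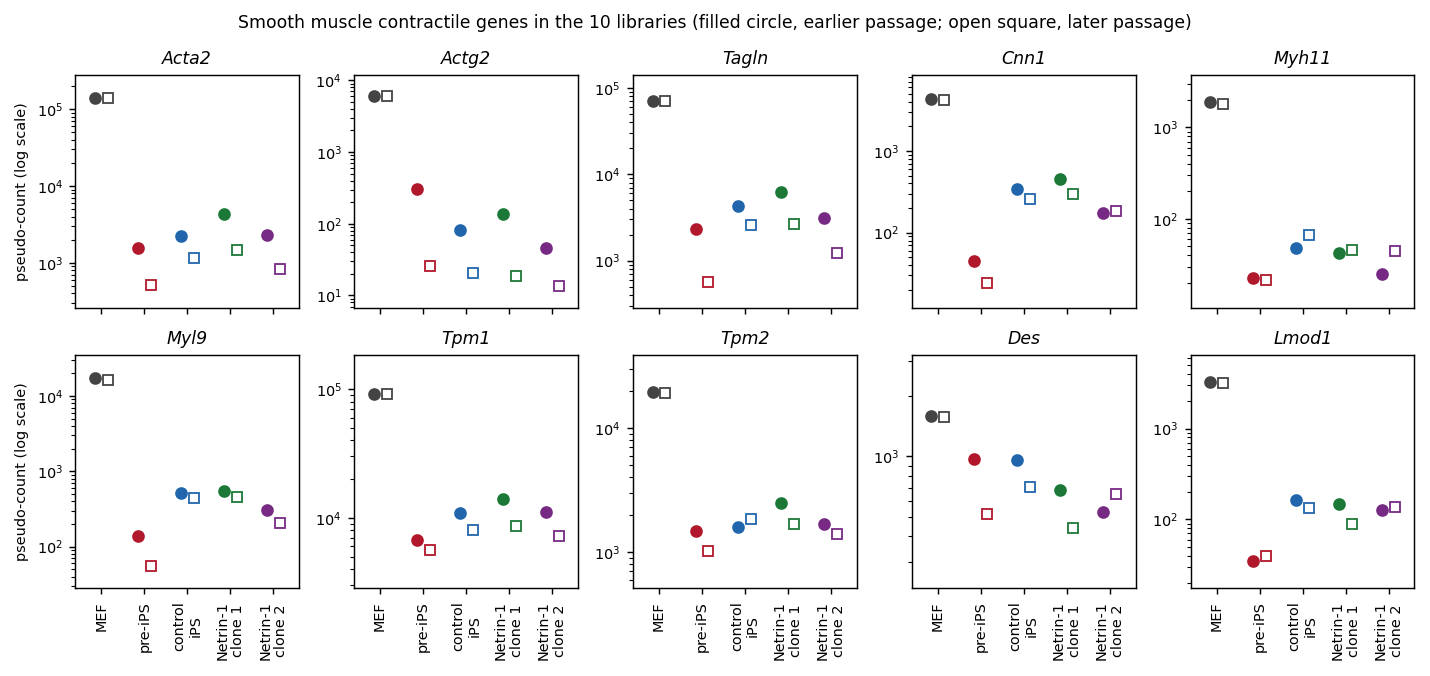
Pseudo-counts of the 10 members in each library on log axes, with 1 panel a gene, lines along the x axis, filled circles for the earlier passage (2 in MEF, 5 in the other lines) and open squares for the later passage (4 or 25). Both MEF libraries lie above the other 8 libraries in every panel, and the open squares of *Acta2* and *Actg2* lie below all filled circles of the reprogrammed lines.

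All 10 members were higher in MEF than in the mean of the 3 iPS lines (limma, adjusted p of 0.00129 or less). Of all genes tested, 21.6% were called higher and 26.6% lower in this comparison. A gene was called when its adjusted p was below 0.05 and its fitted log2 difference was 1 or more in size. For every member both MEF libraries lay above all 8 pre-iPS and iPS libraries, as they did for 34.6% of genes.

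*Acta2* was at 142175 and 139451 pseudo-counts in MEF at passages 2 and 4, against a lowest value of 838, a median of 1840 and a highest of 4322 in the 6 iPS libraries. The fitted difference was 6.31 ± 0.57 (SE) on the log2 scale, or 79.3-fold. *Actg2* was at 6029 and 6031 in MEF and between 13.4 and 136 in iPS, with a median of 33.7. Its difference was the largest of the members, 7.29 ± 1.04, and also the least precise. The iPS libraries thus kept 1.46% of the MEF mean for *Acta2* and 0.877% for *Actg2*.

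Among the genes of the motor, *Myh11* was at 1900 and 1812 in MEF and between 24.8 and 65.7 in iPS, a log2 difference of 5.38 ± 0.25. *Myl9* was at 17525 and 16344 in MEF and between 208 and 541 in iPS, a log2 difference of 5.43 ± 0.30. The genes of actin-binding proteins differed somewhat less. *Tagln* was at 71022 and 71472 in MEF and between 1226 and 6264 in iPS (log2 4.58 ± 0.56). *Cnn1* was at 4296 and 4199 in MEF and between 176 and 458 in iPS (log2 3.96 ± 0.25). *Lmod1* was at 3227 and 3156 in MEF and between 89.3 and 164 in iPS (log2 4.6 ± 0.20).

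The tropomyosins and desmin kept the largest part of their fibroblast level. *Tpm1* was at 91904 and 91912 in MEF and between 7210 and 14101 in iPS (log2 3.24 ± 0.22, 10.9% of MEF left). *Tpm2* was at 19335 and 19034 in MEF and between 1402 and 2506 in iPS (log2 3.45 ± 0.18, 9.3% left). *Des* was at 1599 and 1571 in MEF and between 441 and 960 in iPS, with 41.7% left. Its difference was 1.3 ± 0.25, and it was the only member with a fold change under 9. In the iPS lines *Tagln* and *Tpm1* were the highest members per kilobase, at 1687 and 1545, and *Acta2* was next at 934. *Myh11* was lowest there too, at 5.95 per kilobase.

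Most of these proteins have relatives outside muscle, and the smooth muscle share of each family, per kilobase of exon, was set against them. In MEF, *Acta2* and *Actg2* made up 41.6 to 42.3% of the sum with the cytoplasmic actin genes *Actb* and *Actg1*. In the 6 iPS libraries they made up 0.738 to 3.81%, and in pre-iPS 0.522 and 1.73%. *Myl9* had a share of 63.5 to 65.3% of the regulatory light chain genes, with *Myl12a* and *Myl12b*, in MEF and of 5.16 to 10.8% in iPS. *Tagln* had 83 to 83.3% of its sum with *Tagln2* in MEF and 12.6 to 33.1% in iPS. *Myh11* was a minor myosin heavy chain in every line, at 2.03 to 2.09% of the sum with *Myh9*, *Myh10* and *Myh14* in MEF and 0.101 to 0.25% in iPS. Desmin ran the other way against vimentin. *Des* was 0.961 to 0.97% of their sum in MEF and 1.66 to 6.41% in iPS, as *Vim* was lower in iPS by more than *Des*. Reads were counted per gene, so transcript forms made outside muscle from a member, as from *Tpm1* and *Tpm2*, count toward its share. *Tpm1* and *Tpm2* were set against *Tpm3* and *Tpm4*. These shares were not tested.

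**Figure D2:**
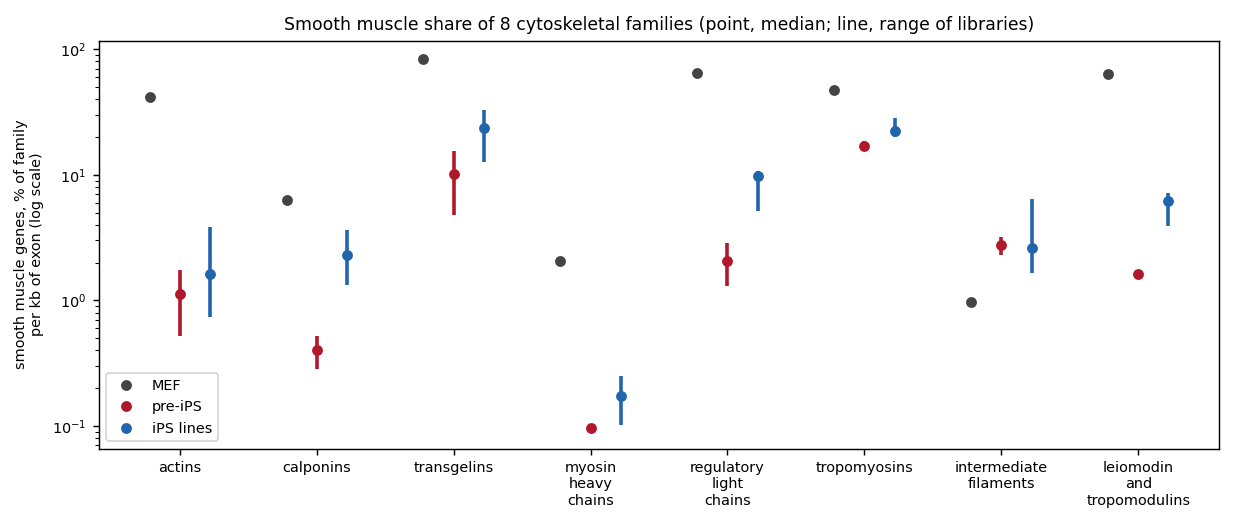
Share of the smooth muscle genes in 8 cytoskeletal families, in percent of the summed pseudo-counts per kilobase of exon on a log axis, with the median (point) and the range (line) of the 2 MEF, 2 pre-iPS and 6 iPS libraries. The MEF share lies above both other groups in each family except the intermediate filaments, where it lies below them.

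The pre-iPS line was also far below the fibroblast level of the members. All 10 were lower in pre-iPS than in MEF, where 20.9% of genes were called lower, with fitted differences from -7.57 on the log2 scale for *Myl9* (189-fold) to -1.16 for *Des* (2.23-fold). The *Des* call was lost without the pre-iPS library of passage 25 (log2 -0.71, limma adjusted p 0.0622).

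Against the mean of the iPS lines, 3 members were lower in pre-iPS and none was higher. Calls over all genes were 11.6% lower and 4.71% higher. Under quantile normalization 1483 genes were called higher and 1426 lower in place of 804 and 1977. *Cnn1*, which encodes an inhibitor of the actomyosin ATPase, was at 44.9 and 24.0 in pre-iPS at passages 5 and 25. In the iPS lines it was at 344 and 261 (control), 458 and 297 (clone 1) and 176 and 185 (clone 2). The difference was -3.01 ± 0.25 on the log2 scale (limma adjusted p 5.52e-05), or 8.04-fold. *Myl9* was at 140 and 55.7 in pre-iPS, against a lowest iPS value of 208 (log2 -2.13 ± 0.30, limma adjusted p 0.000897). Without the pre-iPS library of passage 25 this difference was -1.48, and without that of passage 5 it was -2.79. *Lmod1* was at 34.7 and 39.4 in pre-iPS, against a lowest iPS value of 89.3 (log2 -1.79 ± 0.20, limma adjusted p 0.000273). Both pre-iPS libraries lay below all 6 iPS libraries for these 3 genes and for *Myh11* and *Tpm1*, 5 members in all, as they did for 21.7% of genes tested.

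*Myh11*, *Tpm1* and *Tpm2* had adjusted p-values under 0.05 but differences under the fold limit (log2 -0.97, -0.67 and -0.52, limma adjusted p 0.0148, 0.0392 and 0.0472). These 3 depended on the fit. With 1 library left out their adjusted p reached 0.0809, 0.211 and 0.382, and with either pre-iPS library left out *Myh11* and *Tpm1* lost it. Without the pre-iPS library of passage 25 the *Tpm2* difference was -0.25. Under quantile normalization *Myh11* differed by -0.37 (limma adjusted p 0.243), and with only the compared lines in the fit *Tpm1* and *Tpm2* had adjusted p-values of 0.0671 and 0.0813. *Acta2* was lower in pre-iPS than in each iPS line at the same passage. Its difference of -0.98 did not pass (limma adjusted p 0.2), had an adjusted p of 0.00082 with the passage as a block, still under the fold limit, and was -1.79 or -0.18 without the pre-iPS library of passage 5 or 25. *Des* did not pass (log2 0.14, limma adjusted p 0.688). *Actg2* and *Tagln* differed strongly between the passages of the pre-iPS line, and their calls turned on it. *Actg2* was at 306 in pre-iPS at passage 5, above every iPS library, and at 25.9 at passage 25 (log2 1.23 ± 1.04, limma adjusted p 0.377). *Tagln* was at 2337 and 566 (log2 -1.38 ± 0.56, limma adjusted p 0.0838). With the passage as a block *Actg2* was called higher (adjusted p 0.0276) and *Tagln* lower (adjusted p 0.00176). Without the pre-iPS library of passage 5 the *Actg2* difference was -0.52 and the *Tagln* difference -2.40 (limma adjusted p 0.77 and 0.0194). Without that of passage 25 they were 2.99 and -0.35 (limma adjusted p 0.0792 and 0.666).

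**Figure D3:**
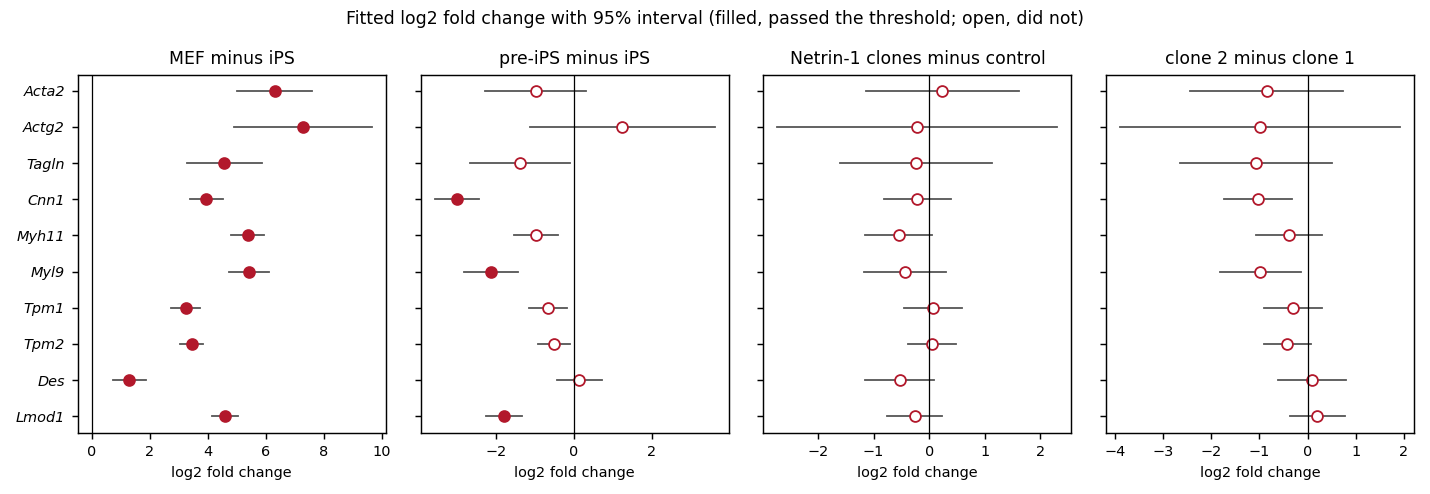
Fitted log2 fold change of the 10 members in 4 comparisons (panels, each with its own x axis) with the 95% interval as a line, filled where the threshold was passed. All points are filled for MEF minus iPS, 3 of 10 for pre-iPS minus iPS and none for the comparisons among the iPS lines.

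Between passages 5 and 25, the actin genes *Acta2* and *Actg2* and the actin-bundling gene *Tagln* fell, 3 of the 10 members. Passage 25 was compared with passage 5 within the 4 pre-iPS and iPS lines, and 1.29% of genes were called lower and 0.398% higher. *Acta2* went from 1563 to 514 in pre-iPS, from 2219 to 1144 in the control line, from 4322 to 1462 in clone 1 and from 2318 to 838 in clone 2. The fitted fall was 2.63-fold (log2 -1.40 ± 0.11, limma adjusted p 0.00135). *Actg2* went from 306 to 25.9, from 82.2 to 20.9, from 136 to 18.5 and from 46.6 to 13.4 in the same lines. Its fall was 5.63-fold (log2 -2.49 ± 0.32, limma adjusted p 0.00601), and the passage 25 values rested on 15 to 27 reads a library. *Tagln* went from 2337 to 566, from 4250 to 2602, from 6264 to 2688 and from 3095 to 1226, a fall of 2.51-fold (log2 -1.33 ± 0.18, limma adjusted p 0.00795).

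For *Acta2* and *Actg2* every passage 25 library lay below every passage 5 library, as for 4.02% of genes. For *Tagln* the passages overlapped between lines, although each line was lower at passage 25. In all, 5 members, with *Myl9* and *Tpm1* added, were lower at passage 25 in all 4 lines, as were 20.9% of genes. *Tpm1* kept 61.2 to 84.5% of its passage 5 value, a difference under the fold limit (log2 -0.50 ± 0.08, limma adjusted p 0.0119, and 0.0785 or 0.0793 without clone 1 at passage 5 or 25). The other 6 members did not pass. *Myl9* had the next lowest adjusted p (log2 -0.59, limma adjusted p 0.0915), and *Myh11*, the motor gene, was at a higher value at passage 25 in 3 of 4 lines (log2 0.32, limma adjusted p 0.399). In MEF the values at passage 4 were 93.3 to 101% of those at passage 2 for all 10 members.

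The calls rested on comparing passages within lines. Without the line as a block no member passed (adjusted p 0.286, 0.195 and 0.474 for *Acta2*, *Actg2* and *Tagln*). Without clone 1 at passage 5, *Actg2* and *Tagln* missed the threshold narrowly (limma adjusted p 0.0512 and 0.0514), and without clone 1 at passage 25 *Tagln* did (0.0516). The 3 genes passed in the iPS lines alone. The passage difference of pre-iPS less that of the iPS lines was -1.36 ± 0.58 on the log2 scale for *Actg2* and -0.96 ± 0.25 for *Tagln*, and no gene of the table passed the test of that difference (limma adjusted p 1). Exact sign-flip tests over 4 lines cannot go below 0.125, and gave that value for *Acta2*, *Actg2* and *Tagln*. Passage and the date or support of the culture cannot be told apart.

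**Figure D4:**
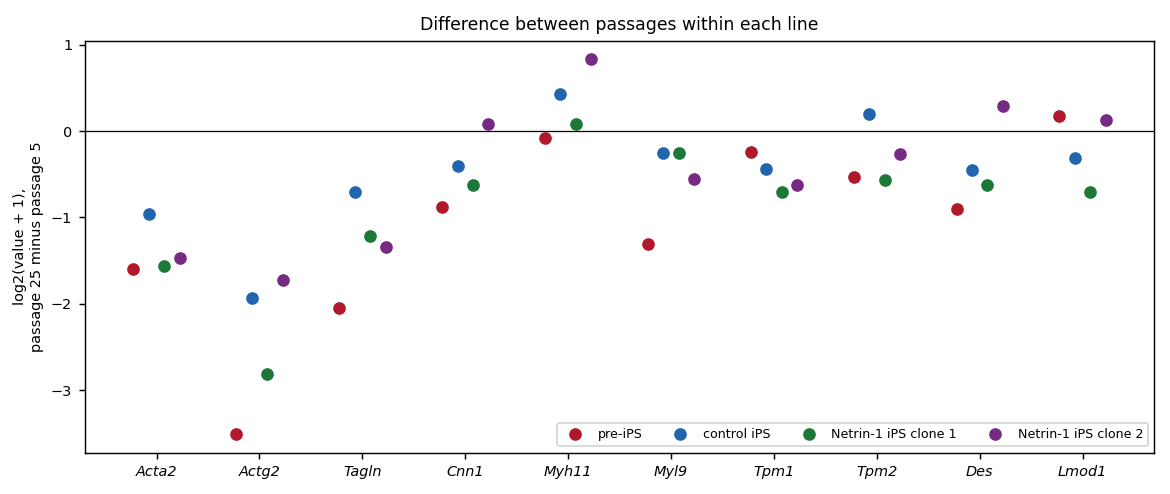
Difference between passage 25 and passage 5 in log2(value + 1), y axis, for each member along the x axis, with 1 point for each of the 4 lines. All 4 points lie below 0 for *Acta2*, *Actg2*, *Tagln*, *Myl9* and *Tpm1*, with *Actg2* lowest, between -3.51 in pre-iPS and -1.72 in clone 2.

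Between the Netrin-1 clones and the control line no member passed the test, with limma or with edgeR on the recovered reads, and none had an unadjusted p under 0.05. Over all genes 0.99% were called higher and 1.12% lower. The fitted differences ran from -0.55 for *Myh11* (95% interval -1.15 to 0.05, limma adjusted p 0.329) to 0.23 for *Acta2* (-1.14 to 1.61, limma adjusted p 0.897). The interval was narrowest for *Tpm2*, at -0.38 to 0.48, and widest for *Actg2*, at -2.73 to 2.31. The sign of *Acta2*, *Actg2*, *Tagln*, *Tpm1* and *Tpm2* depended on which library was left out.

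Clone 2 against clone 1 gave no call either, with limma or edgeR, where 0.714% of genes were called higher and 0.252% lower. The fitted values of 8 of 10 members were lower in clone 2. *Cnn1* was at 458 and 297 in clone 1 and at 176 and 185 in clone 2 (log2 -1.03, 95% interval -1.73 to -0.32, limma adjusted p 0.152). *Myl9* was at 541 and 456 in clone 1 and at 305 and 208 in clone 2 (log2 -0.98, limma adjusted p 0.241). These were the 2 members with an unadjusted p under 0.05. *Des* and *Lmod1* had differences of 0.09 and 0.20.

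Genes that work with the members were examined from lists chosen by function. Of 23 other genes of the smooth muscle apparatus, which cover the light chain kinase and phosphatase, calcium and potassium channels and dense plaque proteins, 18 were higher and 1 lower in MEF than in iPS. Their median log2 difference was 1.82, against 4.59 for the 10 members and -0.09 for all genes. *Cacna1c*, the L-type calcium channel, was at 3666 ± 6.28 (SD, n = 2) in MEF and 52.0 ± 12.9 (SD, n = 6) in iPS. *Prkg1*, the kinase through which nitric oxide relaxes smooth muscle, was at 2252 ± 52.5 and 55.6 ± 18.5. *Pdlim3*, a Z-line protein, was the gene that was lower in MEF, at 23.9 ± 3.39 against 338 ± 155 in iPS.

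In pre-iPS against iPS, 5 of these 23 genes were lower and 2 higher. *Pdlim3* was at 6.99 ± 3.10 in pre-iPS (log2 -5.33, limma adjusted p 8.86e-06), and *Synpo2*, an actin-binding protein, at 13.8 ± 2.20 against 87.4 ± 31.4 in iPS (log2 -2.51, limma adjusted p 7.34e-05). *Kcnma1*, a calcium-activated potassium channel, was higher at 226 ± 12 against 83.5 ± 35.9, and so was *Cacna1c* at 133 ± 43.5. None of the 23 passed between passages, where their median difference was 0.04 and that of the members -0.48. Under the fold limit, *Csrp1* was lower at passage 25 (log2 -0.54, limma adjusted p 0.00708) and *Hspb6* higher (log2 0.42, limma adjusted p 0.0386).

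Of 20 regulators of smooth muscle genes, 10 were higher and 1 lower in MEF than in iPS, with a median log2 difference of 0.98. *Tgfb3*, a ligand of the TGF-beta family, was at 19309 ± 390 in MEF and 400 ± 120 in iPS, and its receptor gene *Tgfbr2* at 39720 ± 453 and 2039 ± 386. *Srf* itself differed by 0.41 (limma adjusted p 0.00135), under the fold limit. *Klf4*, a repressor of smooth muscle genes, was lower in MEF, at 2597 ± 84.4 against 44300 ± 13369 in iPS and 111298 ± 14405 in pre-iPS. Reads of the viral and the endogenous *Klf4* coding sequence cannot be told apart here. *Myocd*, which encodes myocardin, was at 24.7 ± 4.89 in MEF, 42.9 ± 15.8 in pre-iPS and 8.58 ± 4.03 in iPS, and was called higher in pre-iPS than in iPS (log2 2.27, limma adjusted p 0.00172). No regulator passed between passages, and *Srf* differed there by 0.11 (limma adjusted p 0.285). *Tgfbr1* was higher at passage 25, under the fold limit (log2 0.32, limma adjusted p 0.0235). Under the fold limit, *Klf4* was higher in the Netrin-1 clones than in the control line (log2 0.72, limma adjusted p 0.0255). *Elk1* was higher in clone 2 than in clone 1, also under the limit (log2 0.72, limma adjusted p 0.0221). Among the iPS lines the *Tgfb2* ligand gene alone was called. Its values in the control line were 401 and 354. Clone 1 had 1184 and 1391, and clone 2 had 733 and 556. The difference was 1.26 for the clones against the control (limma adjusted p 0.00314) and -1.01 for clone 2 against clone 1 (limma adjusted p 0.0274).

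The 19 non-muscle relatives were less uniform, with 9 higher and 2 lower in MEF than in iPS and a median log2 difference of 0.62. *Cnn2*, a calponin of non-muscle cells, was at 32201 ± 446 in MEF and 3281 ± 641 in iPS, and *Vim* at 205430 ± 1270 and 29309 ± 7157. *Myh14* and *Tmod2* were lower in MEF, at 22.7 ± 9.48 against 2191 ± 731 and at 179 ± 1.07 against 961 ± 227. In pre-iPS the non-muscle myosin gene *Myh10* was the relative called lower (log2 -1.05, limma adjusted p 0.000966). Between passages none of the 19 passed, and their median log2 difference was -0.06. Under the fold limit, with adjusted p below 0.05, *Myh14*, *Myl6*, *Cnn2*, *Tagln2*, *Myl12a* and *Tmod3* were lower at passage 25 (log2 -0.64 to -0.23). *Myh10* was higher there (log2 0.36, limma adjusted p 0.00808). Striated muscle genes differed from the members in MEF against iPS, where most were lower in MEF. Of the 29 tested, 20 were lower in MEF than in iPS and 4 higher, and 16 were lower in pre-iPS than in iPS and 2 higher. Over all genes, 26.6% were called lower in MEF and 21.6% higher, and 11.6% lower in pre-iPS and 4.71% higher. *Myh8* and *Myh1* were higher in MEF, at 31.3 ± 2.41 against 2.46 ± 1.35 in iPS and at 90.7 ± 13.0 against 13.5 ± 8.79. *Myl4* and *Tnni3* were higher in pre-iPS, at 368 ± 51.4 against 110 ± 20.8 in iPS and at 483 ± 3.22 against 210 ± 69.5. *Myh3*, the embryonic skeletal myosin, was at 0.578 ± 0.808 in MEF and 212 ± 83.7 in iPS, and *Mylpf*, a fast skeletal light chain, at 22.5 ± 6.21 and 2451 ± 880. *Myh6*, the atrial myosin, was at 3.93 ± 1.23 in pre-iPS and 228 ± 82.8 in iPS, and the cardiac actin gene *Actc1* had no read in pre-iPS and lay between 22.4 and 163 in iPS. Under the fold limit, *Myl7* (log2 -0.96, limma adjusted p 0.0341) and *Mylpf* (log2 -0.46, limma adjusted p 0.0224) were lower at passage 25. *Acta1*, the skeletal actin gene, was higher in MEF, at 1018 and 1036, than in iPS (log2 2.0, limma adjusted p 0.0134). *Acta1* was also the striated gene called between passages. It went from 514 to 272 in the control line, from 773 to 260 in clone 1, from 114 to 88.7 in clone 2 and from 41.8 to 7.68 in pre-iPS (log2 -1.29 ± 0.30, limma adjusted p 0.0375).

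Markers of other cells that a culture can hold were measured beside these results. The summed value of the 14 fibroblast markers was 3199408 and 3342652 in MEF, 25855 and 27452 in pre-iPS and 25038 to 51018 in the iPS libraries. None of the 14 was at 0 in the reprogrammed lines, and the median marker was at 0.996 to 2.51% of its MEF level there. The median member was at 0.966 to 6.69%. None of the 14 passed between passages, and their median log2 difference was -0.05. Under the fold limit, *Pdgfra* was higher at passage 25 (log2 0.51, limma adjusted p 0.00433) and *Lox* lower (log2 -0.59, limma adjusted p 0.0121). The sum of the 14 was 25038 to 51018 at passage 5 and 25855 to 42043 at passage 25. The library with the highest sum, clone 1 at passage 5, was also the iPS library with the highest *Acta2*, *Actg2* and *Tagln*. In the control line the sum rose from 25038 to 34687 between passages while *Acta2* went from 2219 to 1144. Pre-iPS at passage 5 had a sum of 27452 and the highest *Actg2* of the reprogrammed lines, 306. In pre-iPS against iPS, *Lox* alone was called lower among the 14, and it was at 10189 and 8228 in clone 1 against 637 to 1347 in the other lines.

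The summed value of the 5 macrophage markers was 10937 and 10944 in MEF, 1023 to 1657 in the reprogrammed lines at passage 5 and 432 to 892 at passage 25. *Csf1r* and *Cd68* were called lower at passage 25 (log2 -1.48 and -1.07, limma adjusted p 0.00515 and 0.00472). In MEF *Cd68* was at 767 and 715, and it did not pass in MEF against iPS (log2 0.11, limma adjusted p 0.832). *Csf1r* lay between 31.4 and 168 and *Cd68* between 354 and 1565 in the 8 libraries of the reprogrammed lines. *Ptprc*, *Emr1* and *Lyz2* stayed at or under 10.9 in all 8. Of 6 pericyte markers 4 were higher in MEF than in iPS, with *Cspg4* at 6701 ± 345 and 1193 ± 351, and none passed between passages. *Mcam* was higher at passage 25, under the fold limit (log2 0.37, limma adjusted p 0.00714). *Rgs5* had no read in pre-iPS and was at or under 6.26 in iPS. Of 5 endothelial markers 4 were lower in MEF, as were 26.6% of all genes, with *Pecam1* at 3.94 ± 1.06 against 1452 ± 937 in iPS. *Kdr* was higher in MEF, at 132 ± 19.1 against 47.6 ± 18.0. None of the 5 passed between passages. *Tek* was higher at passage 25, under the fold limit (log2 0.40, limma adjusted p 0.0237). The part of such cells in the members' differences was not tested.

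Other genes with a like pattern over the 8 pre-iPS and iPS libraries were looked for by the Pearson correlation of log2(value + 1) with the mean of the standardized members. The points share depth, line and passage, and the values are a description. The 10 highest outside the lists were *Gng5* (r = 0.993), *Nog* (0.982), *Rhpn1* (0.979), *Timm17a* (0.979), *3230401D17Rik* (0.973), *Rraga* (0.972), *Tmem40* (0.968), *Zfp541* (0.968), *Uchl5* (0.966) and *Ltb* (0.964). *Gng5* ranged from 2923 to 3887. *Nog*, which encodes the BMP antagonist noggin, was at 12.2 to 62.1 at passage 5 and 2.88 to 34.4 at passage 25 (log2 -1.07, limma adjusted p 0.0467). *Ltb*, the lymphotoxin beta gene, was at 76.5 to 368 and 25.0 to 125 (log2 -1.45, limma adjusted p 0.00385). Among the members the correlation with the mean of the other 9 was highest for *Tagln* (0.95) and *Myl9* (0.9) and lowest for *Des* (0.25) and *Actg2* (0.23).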

How the data were processed

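Poly(A) RNA was sequenced as single reads of 50 nt, with the 10 libraries pooled in 1 lane. The submitters' processing notes name CASAVA 1.8.2, TopHat2 2.0.8b, HTSeq 0.5.3p9, edgeR and the build mm10. Annotation and strand setting are not given in the sources used here. The authors deposited a signal per gene, edgeR pseudo-counts. Whole reads were recovered from them for 100% of the values in each library, and equalizing these reads again differed from the table by a median of 5.23e-08% of the value. Limma 3.58.1 (R 4.3.3, trend, Benjamini-Hochberg) was fitted to log2(value + 1) over 10 libraries with 1 mean per line, for genes that reached 10 in 2 or more libraries. Passages were compared over 8 libraries with the line as a block. Fold changes are on the log2(value + 1) scale and understate low genes. Exon lengths, with all annotated exons of a gene merged, came from GENCODE M21 on GRCm38, a build that matches mm10 in coordinates. The fits were tested on simulated counts.

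Passage numbers in the labels paired the libraries of the 4 reprogrammed lines: deviations from the line means correlated at 0.235 to 0.504 (mean 0.353) in all 6 pairs of lines. MEF have other passages. The members and lists were chosen with earlier results of these data known. Genes named from the lists were among the 2 with the largest called change in each direction of MEF and of pre-iPS against iPS. Not all such genes are named. Regulators called among iPS lines and the 10 genes most like the members were named too. Genes named for their passage difference, and *Srf*, were added after their values were seen. Alternatives were pseudocounts of 5 and 0.5, no filter or a mean of at least 50, quantile normalization, fewer lines, the adjusted p alone, the block and leaving out each library. EdgeR 4.0.16 (quasi-likelihood, TMM) on the recovered reads was added after seeing the data.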

Additional observations from a re-analysis of the deposited data

How the results depend on the processing

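The passage 25 values of *Actg2* rested on 15 to 27 reads a library, which limits their precision. The 10 calls of MEF above iPS held in every alternative run, and so did the absence of a call among the iPS lines. No run scaled the values to the total reads of a library. The count of members lower in pre-iPS than in MEF was 9 to 10 with 1 library left out. Of the members called in pre-iPS against iPS, the count higher went from 0 to 1 (*Actg2*) and the count lower from 3 to 4 (*Tagln* added) with the passage as a replicate block. The count lower was 6 with the adjusted p alone and 3 to 4 with 1 library left out. In passage 25 against passage 5 the count lower was 3, with no replicate block 0, and 1 to 3 with 1 library left out. The replicate block changed no other call of a member. With 1 library left out, fitted log2 differences crossed 0 in pre-iPS against iPS for *Actg2* (-0.52 to 2.99) and *Des* (-0.31 to 0.59), in the clones against the control for *Acta2* (-0.25 to 0.71), *Actg2* (-1.18 to 0.75), *Tagln* (-0.59 to 0.12), *Tpm1* (-0.14 to 0.29) and *Tpm2* (-0.093 to 0.19), and in clone 2 against clone 1 for *Actg2* (-2.38 to 0.43), *Tpm1* (-0.66 to 0.05), *Des* (-0.22 to 0.41), *Lmod1* (-0.15 to 0.56) and *Myh11* (-0.80 to 0.029). None of these 12 was called in the full fit. *Myh11* was called lower in pre-iPS by edgeR (log2 -1.03, adjusted p 0.0137). Over all genes, the clones against the control gave 58 higher and 76 lower with only these lines in the fit and 275 and 289 with the block, clone 2 against clone 1 gave 2 and 4 and 221 and 106, and the passages without the block 1 and 5. The cause was not tested.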
